A study of Mus musculus with 6 samples.

Results

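The genes described here are 10 genes of the NRF2 antioxidant pathway and of the glutathione and thioredoxin systems that it serves: Nfe2l2, Keap1, Gclc, Gclm, Slc7a11, Gsr, Txnrd1, Srxn1, Nqo1 and Osgin1. They were chosen by name, with earlier results of these data known. Their symbols were matched to Ensembl gene IDs by the GENCODE M21 annotation, and all 10 were found among the 54886 genes of the data. The transcriptome was measured by RNA sequencing in 6 libraries of GC-2spd cells, a mouse cell line derived from spermatocytes, whose strain background is given as BALB/c. The control group (untreated, 3 libraries) was kept in normal culture medium, to which the study's methods add PBS, and the PM2.5 group (3 libraries) was exposed for 48 h to 100 μg/mL of PM2.5. The particles were a standard reference material of urban particulate matter, so the PM2.5 group stands for 1 particle preparation, 1 dose and 1 exposure time in 1 cell line. Between 16209352 and 18003201 reads assigned to genes were recovered per library from the deposited FPKM (fragments counted per kilobase of gene length and scaled for sequencing depth), in which all levels below are given. The study's general note on statistics speaks of 3 experiments, and no source used here says of these libraries in particular that they came from separate cultures, so that p-values measure the spread between these libraries, whatever its origin.

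Control library 2 stood apart from the other libraries. Across the 11884 genes with a mean of at least 1 FPKM, its log2(FPKM + 1) values had a Pearson r of 0.742 and 0.745 with control libraries 1 and 3, which had an r of 0.992 with each other. Mitochondrially encoded genes took 14.5% of its reads, against 1.65% and 1.75% in control libraries 1 and 3 and 1.70%, 1.95% and 1.93% in PM2.5 libraries 1, 2 and 3. PM2.5 library 3 also differed from its group, with an r of 0.950 and 0.958 with PM2.5 libraries 1 and 2 and of 0.972 with each of control libraries 1 and 3. PM2.5 libraries 1 and 2 had an r of 0.991 with each other. For the closest pairs the chi-square of the read numbers, divided by its degrees of freedom, came to 3.63 (control libraries 1 and 3) and 5.03 (PM2.5 libraries 1 and 2), where counting error alone would give a value near 1. This value covers counting error only and takes all reads as independent, which copies made by PCR are not. The limma fits are given with and without control library 2.

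The labelled cell type was compared with marker genes. Of 13 spermatocyte markers, 11 had at most 10 reads in every library, and Dazl, Pgk2, Piwil1, Mael and Spo11 were at 0 in all of them. The summed level of these 13 genes was 5.97, 5.19 and 5.08 FPKM in control libraries 1, 2 and 3 and 3.89, 4.98 and 3.50 FPKM in PM2.5 libraries 1, 2 and 3, with Hspa2 the most abundant on average. Sycp3 had 42 reads in control library 2 and at most 10 in any other library. By contrast, 6 of 7 fibroblast and mesenchymal markers had a mean of at least 1 FPKM, and their summed level came to 1077, 1410 and 1091 FPKM in control libraries 1, 2 and 3 and to 999, 994 and 769 FPKM in PM2.5 libraries 1, 2 and 3. Within this sum the genes differed, as was seen only once their values were known. Col1a2 (202, 199 and 201 FPKM, then 135, 130 and 115 FPKM) and Col3a1 (14.0, 17.8 and 13.6 FPKM, then 9.58, 9.61 and 7.52 FPKM) were lower in every PM2.5 library than in every control library. Fn1 (192, 39.8 and 186 FPKM, then 124, 125 and 107 FPKM) was lower, and Vim (254, 698 and 262 FPKM, then 291, 288 and 343 FPKM) higher, in every PM2.5 library than in control libraries 1 and 3 only, and Col1a1 was at 412, 452 and 425 FPKM, then 435, 437 and 193 FPKM. The log2 fold changes with 6 libraries and without control library 2 were -0.66 and -0.67 (adjusted p = 0.875 and 0.0783) for Col1a2, -0.70 and -0.59 for Col3a1, 0.07 and -0.67 (adjusted p = 0.972 and 0.0831) for Fn1 and -0.23 and 0.25 (adjusted p = 0.897 and 0.387) for Vim, and all 4 genes missed the threshold in both. Most of the defining markers of the labelled cell type were thus at or near 0 at this depth, with Hspa2 and, in control library 2, Sycp3 as exceptions. Of the 5 spermatid markers 0 reached a mean of 1 FPKM, and of the Sertoli (6 genes), Leydig (6 genes) and peritubular or smooth muscle (4 genes) markers 1 each did, namely Gata4, Star and Acta2. Acta2 was at 41.6, 88.3 and 43.3 FPKM among the controls and at 59.2, 58.1 and 59.5 FPKM after PM2.5, with a log2 fold change of 0.12 (SE 0.33, adjusted p = 0.920) with 6 libraries and 0.46 (SE 0.08, also above the threshold of 0.05) without control library 2. Among 5 macrophage and leukocyte markers Ptprc, Adgre1 and Itgam were at 0 in every library, while Cd68 was at 15.5 FPKM in control library 2 and between 0.750 and 1.80 FPKM elsewhere. The part of these differences in the results below was not tested.

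NRF2 is a transcription factor that KEAP1 holds in the cytoplasm and hands to a CUL3 ubiquitin ligase, so that it is broken down while the cell is at rest. Electrophiles and oxidants modify cysteines of KEAP1, NRF2 then accumulates, enters the nucleus with a small MAF partner and binds antioxidant response elements (AREs) in its target genes. These targets make and recycle glutathione and thioredoxin, import cystine, reduce quinones and degrade heme, and in the testis they take part in the defence of germ cells against oxidants.

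RefSeq promoter windows (GRCm38.p6, 250 bases before to 50 bases after a start) were found for 8 of the 10 genes, all but Gclc and Gsr. They were searched on both strands for an ARE core, written TGACNNNGC or TGAGNNNGC, and 6 of the 8 genes held it (Nfe2l2, Gclm, Slc7a11, Txnrd1, Srxn1 and Osgin1), against 30.8% of all 27025 genes and 27.8% of all 32851 windows. The window of Nqo1 held none. A form that contains the AP-1 letters TGAGTCA, which 5.20% of all windows hold, was found as TGAGTCAGC in Srxn1 and Osgin1. The letters TGATGNAA, bound by ATF4 with a partner and found in 3.97% of all windows, were present only in Slc7a11 among the 8, on either strand and apart from the ARE core. The dioxin response core GCGTG was in 5 of the 8 genes and in 35.2% of all genes. A match is a description of letters and neither a binding site nor a cause. Shown here are the windows of Srxn1 (chr2:152105274-152105573, plus strand) and Osgin1 (chr8:119436897-119437196, plus strand), which share TGAGTCAGC but differed in their values below, and that of Slc7a11 (chr3:50443564-50443863, minus strand), which has both kinds of letters, with ARE cores and TGATGNAA in capitals.
Srxn1: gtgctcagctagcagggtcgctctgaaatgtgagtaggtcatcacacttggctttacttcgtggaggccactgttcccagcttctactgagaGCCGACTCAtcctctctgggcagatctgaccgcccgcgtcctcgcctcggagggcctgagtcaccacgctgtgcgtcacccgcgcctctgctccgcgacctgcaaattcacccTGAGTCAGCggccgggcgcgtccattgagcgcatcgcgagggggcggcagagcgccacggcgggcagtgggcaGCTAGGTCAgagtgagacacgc
Osgin1: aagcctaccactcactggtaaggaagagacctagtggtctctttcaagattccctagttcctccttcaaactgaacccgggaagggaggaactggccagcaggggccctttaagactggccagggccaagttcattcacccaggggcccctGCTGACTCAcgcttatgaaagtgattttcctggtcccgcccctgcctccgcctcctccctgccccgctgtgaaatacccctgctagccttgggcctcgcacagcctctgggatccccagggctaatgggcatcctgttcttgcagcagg
Slc7a11: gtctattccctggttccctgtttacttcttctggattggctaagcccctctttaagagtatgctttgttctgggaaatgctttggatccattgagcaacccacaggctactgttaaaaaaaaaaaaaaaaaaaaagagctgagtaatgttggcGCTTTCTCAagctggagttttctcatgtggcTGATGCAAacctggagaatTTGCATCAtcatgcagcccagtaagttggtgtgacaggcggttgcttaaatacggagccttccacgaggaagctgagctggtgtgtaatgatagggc

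Whether exposure to PM2.5 moved the transcripts of this pathway was first asked over the 10 genes together. In each of PM2.5 libraries 1 and 2 all 10 genes lay above the mean of control libraries 1 and 3, and in PM2.5 library 3 this held for 8, the exceptions being Keap1 and Gsr. The median log2 difference of the 10 genes from that mean was 0.47, 0.47 and 0.55 in PM2.5 libraries 1, 2 and 3, while over all 11884 genes it lay at -0.011, -0.012 and -0.0083. Control library 2 had 5 of the 10 genes above the mean of the other control libraries and 5 below. Its median absolute log2 difference was 0.66 over the 10 genes and 0.81 over all genes. In RNA from whole cultures, fewer cells that express a gene and less RNA per cell cannot be told apart.

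**Figure D1:**
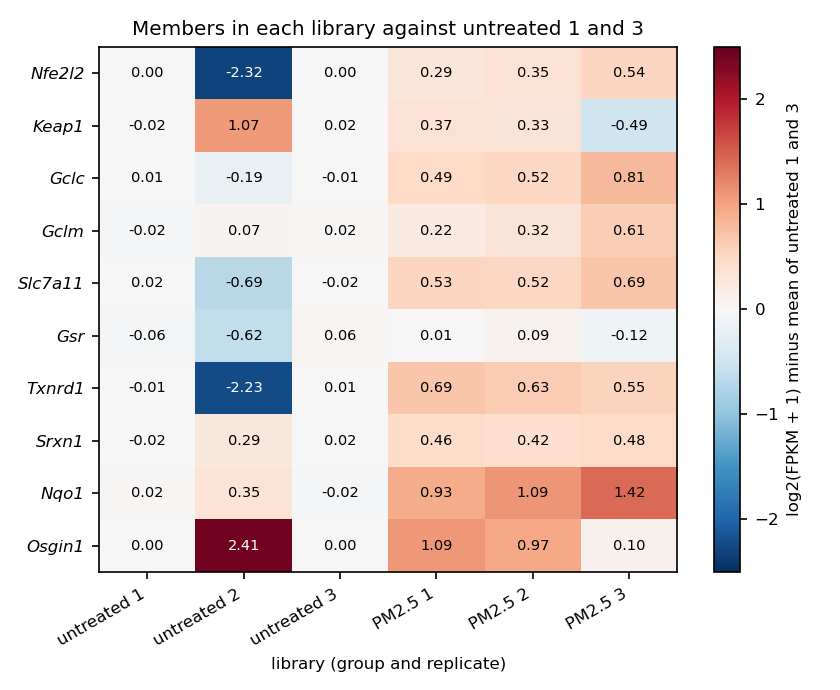
Difference of log2(FPKM + 1) from the mean of control (untreated) libraries 1 and 3, for the 10 genes (rows) in each of the 6 libraries (columns), with red above and blue below. Control library 2 spans -2.32 for Nfe2l2 to 2.41 for Osgin1, while PM2.5 libraries 1 and 2 are at or above 0 for all 10 genes.

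No gene of the 10 passed the study's threshold of an adjusted p under 0.05 in limma, the linear model fitted across all genes on log2(FPKM + 1). With all 6 libraries the count was 0 of 10, against 0.0926% of the 11884 genes tested (11 genes, of which 4 were higher in the PM2.5 group). At an unadjusted p under 0.05, 3 of the 10 were higher (Nqo1, Gclc and Slc7a11), against 1.92% of all genes, and 0 were lower, against 1.88%. Slc7a11, with a control mean under 1 FPKM, was tested only because its PM2.5 values raised its mean. Its place in this count and in those below is therefore no separate support. Without regard to the test, all PM2.5 libraries lay above all control libraries for 7 of the 10, against 8.35% of all genes, namely for Nfe2l2, Nqo1, Gclc, Gclm, Slc7a11, Txnrd1 and Srxn1. The model voom, which weights the recovered reads by their precision, called 0 of the 10 and 0 genes in all in these 6 libraries. Scaling to total reads left 6 genes called, of which 50% were higher, against 36.4% of the 11.

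Without control library 2 the count was again 0 of 10, against 1.03% of the 11597 genes tested (119 genes, 36 of them higher). At an unadjusted p under 0.05, 7 of the 10 were higher, the same 7 that did not overlap between the groups, against 8.32% of all genes, and 0 were lower, against 7.67%. The PM2.5 libraries lay above both control libraries for these 7 and for Osgin1, 8 of the 10, against 17.8% of all genes. With voom 2 of the 10 passed, Slc7a11 (adjusted p = 0.0453) and Txnrd1 (adjusted p = 0.0457), against 1.36% of 11498 genes. In this fit too, Slc7a11 was tested only through its PM2.5 values. Over all alternatives of this fit the adjusted p ran from 0.0126 to 0.812 for Slc7a11 and from 0.000673 to 0.771 for Txnrd1. Leaving out PM2.5 library 3 as well, 9 of the 10 passed and were higher, all but Gsr, against 24.0% of 11624 genes higher and 48.1% called in either direction. This last fit compares only the 2 control libraries and the 2 PM2.5 libraries that were closest to each other. The median log2 fold change of the 10 genes was 0.52 in the fit of 6 libraries and 0.52 without control library 2, against 0.02 and -0.011 over all genes. Fold changes on the log2(FPKM + 1) scale understate those of genes at low levels, and an exact permutation test of 3 against 3 libraries cannot go below 0.1.

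**Figure D2:**
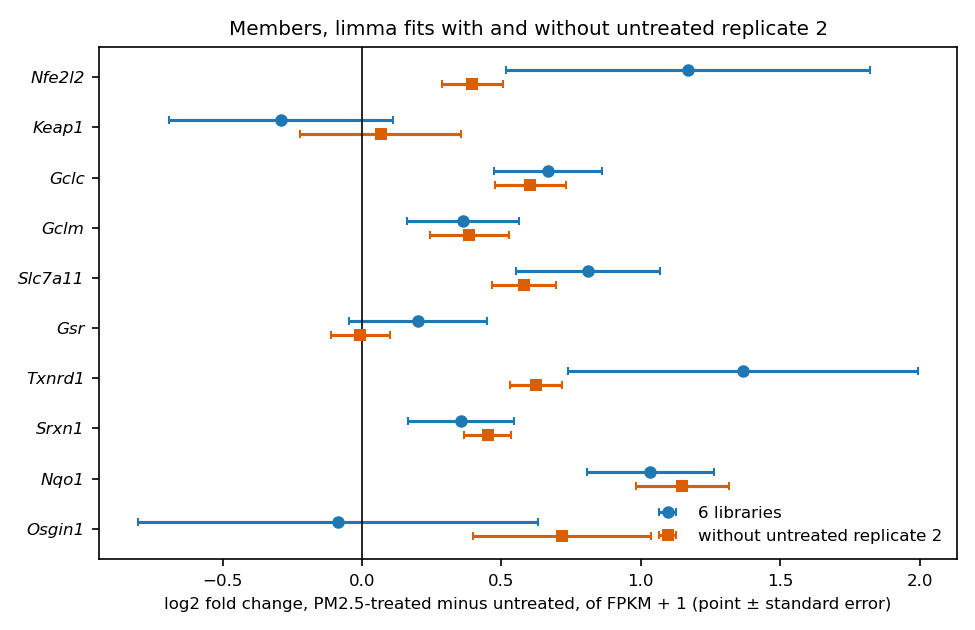
Log2 fold change (PM2.5 minus control, of FPKM + 1) with its standard error for each of the 10 genes, in the limma fit of 6 libraries (circles) and in the fit without control library 2 (squares). The standard error of Nfe2l2 went from 0.65 to 0.11 and that of Txnrd1 from 0.63 to 0.09, and Keap1, Gsr and Osgin1 lie on different sides of 0 in the 2 fits.

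Among the regulators, Nfe2l2, the gene of NRF2 itself (ENSMUSG00000015839, GRCm38 chr2:75675513-75704641, minus strand), was at 22.1, 3.62 and 22.1 FPKM in control libraries 1, 2 and 3 and at 27.3, 28.5 and 32.6 FPKM in PM2.5 libraries 1, 2 and 3. The groups did not overlap, and control library 2 lay 6.12-fold below the mean of the other control libraries. The PM2.5 mean of 29.5 ± 2.76 FPKM (SD, n = 3) was 1.33-fold that of control libraries 1 and 3. Its log2 fold change was 1.17 (SE 0.65, adjusted p = 0.875) with 6 libraries and 0.40 (SE 0.11, adjusted p = 0.196) without control library 2.

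Keap1, whose product retains NRF2 (ENSMUSG00000003308, GRCm38 chr9:21229730-21239361, minus strand), was at 13.1, 29.1 and 13.5 FPKM in the control libraries and at 17.5, 17.0 and 9.17 FPKM in the PM2.5 libraries. PM2.5 libraries 1 and 2 lay above control libraries 1 and 3, PM2.5 library 3 below them and control library 2 above all others, so the groups overlapped with and without control library 2. The log2 fold change was -0.29 (SE 0.40, adjusted p = 0.876) with 6 libraries and 0.07 (SE 0.29, adjusted p = 0.926) without control library 2. Both values were smaller than their errors, and neither direction was shown. Keap1 shared 10.9% of its exon bases with the antisense gene Gm16754, and no source used here states that reads were counted by strand. The ratio of the FPKM of Nfe2l2 to that of Keap1 was 1.69, 0.124 and 1.63 for the control libraries, and it was 1.56, 1.68 and 3.55 for the PM2.5 libraries. PM2.5 library 2 thus lay between control libraries 1 and 3, PM2.5 library 1 slightly below both and PM2.5 library 3 above both.

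Glutathione is made in 2 steps, of which the first, catalysed by glutamate-cysteine ligase, limits the rate. The catalytic subunit gene Gclc (ENSMUSG00000032350, GRCm38 chr9:77754535-77794485, plus strand) was at 23.0, 19.9 and 22.8 FPKM in the control libraries and at 32.5, 33.1 and 40.7 FPKM in the PM2.5 libraries. The lowest PM2.5 library was above the highest control library, and control library 2 was close to the other controls. The mean of 35.5 ± 4.56 FPKM (SD, n = 3) was 1.55-fold that of control libraries 1 and 3. The log2 fold change was 0.67 (SE 0.19, adjusted p = 0.875) with 6 libraries and 0.60 (SE 0.13, adjusted p = 0.128) without control library 2.

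The modifier subunit gene Gclm (ENSMUSG00000028124, GRCm38 chr3:122245557-122270732, plus strand) was at 38.5, 41.1 and 39.9 FPKM in the control libraries and at 45.9, 49.2 and 60.5 FPKM in the PM2.5 libraries. The groups did not overlap, control library 2 was within 1.05-fold of the mean of the other controls, and PM2.5 library 3 was the highest. The PM2.5 mean was 1.32-fold that of control libraries 1 and 3, with a log2 fold change of 0.36 (SE 0.20, adjusted p = 0.875) with 6 libraries and 0.39 (SE 0.14, adjusted p = 0.297) without control library 2. Of its exon bases, 4.71% were shared with the antisense gene Gm17494 and 3.88% with Gm6061 on its own strand. The ratio of the FPKM of Gclm to that of Gclc was 1.68, 2.06 and 1.75 for the control libraries, and it was 1.41, 1.48 and 1.49 for the PM2.5 libraries. Every PM2.5 library had a lower ratio than every control library, so that the catalytic subunit was the nearer to the modifier subunit in the PM2.5 group.

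Slc7a11 encodes the cystine transporter xCT, which supplies cysteine for glutathione, and was the lowest of the 10 genes (ENSMUSG00000027737, GRCm38 chr3:49892526-50443614, minus strand). Its level was 0.867, 0.144 and 0.821 FPKM in the control libraries and 1.66, 1.65 and 1.97 FPKM in the PM2.5 libraries, from 224, 26 and 206 reads and 413, 408 and 495 reads. The groups did not overlap, and control library 2 lay 5.86-fold below the mean of the other controls. The control mean was under 1 FPKM, so that Slc7a11 passed the filter on low values only through the PM2.5 group, although it also had at least 10 reads in every library. The PM2.5 mean of 1.76 ± 0.180 FPKM (SD, n = 3) was 2.09-fold that of control libraries 1 and 3. On the log2(FPKM + 1) scale this came to 0.81 (SE 0.26, adjusted p = 0.875) with 6 libraries and 0.58 (SE 0.11, adjusted p = 0.111) without control library 2, while voom gave 1.78 and 1.05 and a pseudocount of 0.1 gave 1.63 and 0.97.

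Gsr, glutathione reductase, returns oxidised glutathione to its reduced form with NADPH (ENSMUSG00000031584, GRCm38 chr8:33652523-33698163, plus strand). It was at 39.9, 26.6 and 43.3 FPKM in the control libraries and at 41.9, 44.3 and 38.3 FPKM in the PM2.5 libraries. The groups overlapped with and without control library 2, which was the lowest. The log2 fold change was 0.20 (SE 0.25, adjusted p = 0.875) with 6 libraries and -0.0058 (SE 0.11, adjusted p = 0.982) without control library 2. Gsr thus had the smallest difference of the 10 genes once control library 2 was left out.

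In the thioredoxin system, Txnrd1, the cytosolic thioredoxin reductase, had the highest level of the 10 genes in the PM2.5 group and in control libraries 1 and 3 (ENSMUSG00000020250, GRCm38 chr10:82833951-82897712, plus strand). It was at 43.5, 8.58 and 44.3 FPKM in the control libraries and at 71.6, 68.2 and 64.9 FPKM in the PM2.5 libraries. The groups did not overlap, and control library 2 lay 5.11-fold below the mean of the other controls. The PM2.5 mean of 68.2 ± 3.33 FPKM (SD, n = 3) was 1.55-fold that of control libraries 1 and 3. Its log2 fold change of 1.37 (SE 0.63, adjusted p = 0.875) with 6 libraries became 0.62 (SE 0.09, adjusted p = 0.0629) without control library 2.

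Srxn1, sulfiredoxin, repairs overoxidised peroxiredoxins (ENSMUSG00000032802, GRCm38 chr2:152105516-152111376, plus strand). It was at 29.8, 36.9 and 30.4 FPKM in the control libraries and at 41.7, 40.6 and 42.4 FPKM in the PM2.5 libraries. The PM2.5 libraries agreed closely (41.5 ± 0.902 FPKM, SD, n = 3), all lay above the controls, and control library 2 was the highest control. The PM2.5 mean was 1.38-fold that of control libraries 1 and 3, with a log2 fold change of 0.36 (SE 0.19, adjusted p = 0.875) with 6 libraries and 0.45 (SE 0.08, adjusted p = 0.106) without control library 2.

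Nqo1, the quinone reductase widely used as a readout of NRF2 (ENSMUSG00000003849, GRCm38 chr8:107388225-107403206, minus strand), was at 19.6, 24.7 and 18.9 FPKM in the control libraries and at 37.5, 42.2 and 53.3 FPKM in the PM2.5 libraries. The groups were separated by a wide gap, and control library 2 was at 1.28-fold the mean of the other controls. The PM2.5 mean of 44.4 ± 8.14 FPKM (SD, n = 3) was 2.30-fold that of control libraries 1 and 3 and 2.10-fold that of all controls. Nqo1 had the smallest p of the 10 genes with 6 libraries, at a log2 fold change of 1.03 (SE 0.23, adjusted p = 0.527). Without control library 2 the value was 1.15 (SE 0.17, adjusted p = 0.0629).

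Osgin1, an oxidative stress induced growth inhibitor (ENSMUSG00000074063, GRCm38 chr8:119434124-119446256, plus strand), was at 7.33, 43.4 and 7.38 FPKM in the control libraries and at 16.7, 15.3 and 7.95 FPKM in the PM2.5 libraries. Control library 2 was at 5.89-fold the mean of the other controls and above every PM2.5 library. PM2.5 library 3 was close to control libraries 1 and 3. The log2 fold change was -0.086 (SE 0.72, adjusted p = 0.970) with 6 libraries and 0.72 (SE 0.32, adjusted p = 0.363) without control library 2. In the fit of 6 libraries its sign also turned under scaling to total reads, under quantile normalization and without PM2.5 library 3.

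**Figure D3:**
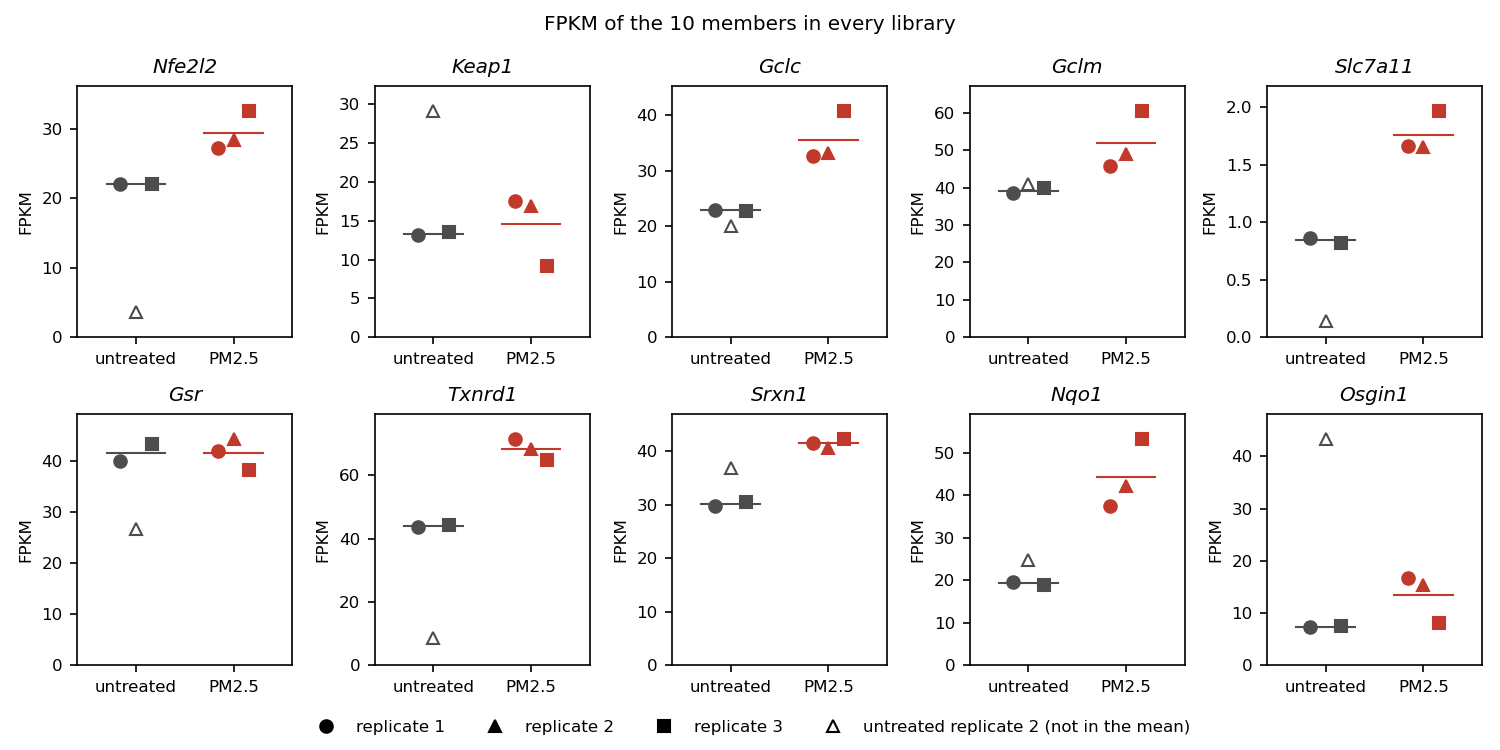
FPKM of each of the 10 genes in the control (untreated) and PM2.5 libraries, with replicates 1, 2 and 3 as circles, triangles and squares, and lines at the mean (for the control group of libraries 1 and 3 only). The open triangle is control library 2, at 3.62 FPKM for Nfe2l2 and 43.4 FPKM for Osgin1, and each vertical axis starts at 0.

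The order of the levels differed between control libraries 1 and 3 and the PM2.5 group. It also differed within the control group, since in control library 2 Osgin1 was the highest of the 10 (43.4 FPKM) and Txnrd1 was at 8.58 FPKM. In control libraries 1 and 3 it ran from Txnrd1 (43.9 FPKM) through Gsr (41.6), Gclm (39.2), Srxn1 (30.1), Gclc (22.9), Nfe2l2 (22.1), Nqo1 (19.2), Keap1 (13.3) and Osgin1 (7.36) to Slc7a11 (0.844), and no neighbours overlapped over these 2 libraries, although Gsr and Gclm met at 39.9 FPKM. In the PM2.5 group Txnrd1 (68.2 FPKM) was followed by Gclm, Nqo1, Srxn1, Gsr and Gclc, each of which overlapped with its neighbour, then by Nfe2l2, by Keap1 and Osgin1, which overlapped, and by Slc7a11. Nqo1 went from the seventh to the third place. PM2.5 library 3 was above the mean of PM2.5 libraries 1 and 2 for 6 of the 10 genes and below it for 4, with a median absolute log2 difference of 0.26 over the 10 genes and 0.29 over all genes. It was 1.34-fold that mean for Nqo1 and 0.495-fold for Osgin1, although both genes are listed as targets of NRF2. The 10 genes lie on 5 chromosomes, with 3 of them (Nqo1, Gsr and Osgin1) on chromosome 8.

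The other genes of the pathway were described from 6 fixed lists, which together held 76 further genes, of which 67 could be tested. With 6 libraries 0 passed in limma, against 0.0926% of all genes, and at an unadjusted p under 0.05 7 were higher and 1 was lower, against 1.92% and 1.88% of all genes. Without control library 2, 1 passed and was higher, against 1.03% of all genes called in either direction, and at an unadjusted p under 0.05 23 were higher and 1 was lower, against 8.32% and 7.67% of all genes. The same shares of all genes apply to each list below. The median log2 fold change over the 67 genes was 0.23 in either fit.

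Of 12 further regulators tested, 0 passed in either limma fit, and at an unadjusted p under 0.05 0 were different with 6 libraries and 1, Sqstm1, was higher without control library 2. Sqstm1, whose product p62 binds KEAP1, was at 128, 178 and 129 FPKM in the control libraries and at 188, 173 and 156 FPKM in the PM2.5 libraries (log2 fold change 0.26, SE 0.25, adjusted p = 0.875 with 6 libraries, and 0.42, SE 0.11, adjusted p = 0.193 without control library 2). Control library 2 overlapped with the PM2.5 group. Rbx1, the RING subunit of the CUL3 ligase, was at 39.0, 87.3 and 38.3 FPKM and at 29.1, 31.2 and 50.9 FPKM, so that its log2 fold change of -0.49 (SE 0.41, adjusted p = 0.875) with 6 libraries rested on control library 2 and was -0.10 (SE 0.26, adjusted p = 0.867) without it.

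Of 8 further genes of glutathione synthesis and cystine supply tested, 0 passed in either limma fit, and 0 and 3 were higher at an unadjusted p under 0.05. Slc3a2, the partner chain of xCT, was at 22.2, 49.8 and 22.9 FPKM in the control libraries and at 40.6, 38.6 and 27.0 FPKM in the PM2.5 libraries (log2 fold change 0.24, SE 0.37, adjusted p = 0.879 with 6 libraries, and 0.61, SE 0.20, adjusted p = 0.248 without control library 2). Chac1, which degrades glutathione, was at 3.62, 5.51 and 3.90 FPKM and at 9.30, 7.85 and 4.06 FPKM (0.55, SE 0.32, adjusted p = 0.875 with 6 libraries, and 0.70, SE 0.32, adjusted p = 0.373 without control library 2). For both genes PM2.5 library 3 was the lowest of its group and control library 2 the highest of its own.

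Among 8 further genes of glutathione reduction tested, 0 passed in either limma fit, and 1 was higher at an unadjusted p under 0.05 in each, which was Esd. Esd, S-formylglutathione hydrolase, was at 40.2, 72.4 and 38.8 FPKM in the control libraries and at 75.3, 83.7 and 100.3 FPKM in the PM2.5 libraries, without overlap. Its log2 fold change was 0.81 (SE 0.31, adjusted p = 0.875) with 6 libraries and 1.10 (SE 0.14, adjusted p = 0.0531) without control library 2. Glrx5, a mitochondrial glutaredoxin, was at 11.9, 4.88 and 11.8 FPKM and at 16.9, 16.1 and 11.2 FPKM, with overlap in PM2.5 library 3 (0.65, SE 0.37, adjusted p = 0.875 with 6 libraries, and 0.27, SE 0.19, adjusted p = 0.530 without control library 2).

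The thioredoxin system gave 12 further genes, of which 0 passed in either limma fit, with 0 higher and 1 lower at an unadjusted p under 0.05 with 6 libraries and 3 higher and 1 lower without control library 2. The lower gene was Txnip, an inhibitor of thioredoxin, at 24.3, 28.6 and 26.5 FPKM in the control libraries and at 15.3, 15.0 and 18.4 FPKM in the PM2.5 libraries. All PM2.5 libraries lay below all control libraries, with a log2 fold change of -0.67 (SE 0.19, adjusted p = 0.857) with 6 libraries and -0.62 (SE 0.12, adjusted p = 0.117) without control library 2. Of the 12 genes, 2 had all PM2.5 libraries above and 4 below all control libraries, against 8.35% and 6.85% of all genes, and without control library 2 these were 4 and 4, against 17.8% and 19.8%. Txnrd3, a thioredoxin glutathione reductase known from testis, was at 3.59, 6.23 and 3.99 FPKM and at 6.93, 7.75 and 6.20 FPKM (0.53, SE 0.23, adjusted p = 0.875 with 6 libraries, and 0.73, SE 0.12, adjusted p = 0.0813 without control library 2).

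NADPH, which glutathione reductase and thioredoxin reductase consume, is supplied by enzymes of which 8 were tested. In neither limma fit did any pass, and 0 and 2 were higher at an unadjusted p under 0.05. G6pdx, which opens the pentose phosphate pathway, was at 36.4, 73.6 and 34.1 FPKM in the control libraries and at 46.5, 47.9 and 48.1 FPKM in the PM2.5 libraries (log2 fold change 0.07, SE 0.33, adjusted p = 0.950 with 6 libraries, and 0.42, SE 0.09, adjusted p = 0.124 without control library 2). Pgls, the next enzyme, had 6.52, 20.4 and 6.68 FPKM and 11.5, 10.9 and 5.81 FPKM (-0.096, SE 0.49, adjusted p = 0.952 with 6 libraries, and 0.40, SE 0.29, adjusted p = 0.543 without control library 2). Taldo1 (transaldolase) and Me1 (malic enzyme) had log2 fold changes of 0.54 and 0.41 with 6 libraries and of 0.11 and -0.027 without control library 2, in which they were at 44.8 and 33.2 FPKM against 108.7 and 86.2 FPKM in control library 1.

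Further known NRF2 targets, which detoxify electrophiles or handle heme and iron, made up the last of the 6 lists. Of 19 tested, 0 passed in limma with 6 libraries and 1 without control library 2, and 6 and 13 were higher at an unadjusted p under 0.05, with 0 lower in either fit. Hmox1, heme oxygenase 1, was at 25.8, 20.4 and 26.6 FPKM in the control libraries and at 126.7, 118.0 and 90.0 FPKM in the PM2.5 libraries. It was the gene that passed, at 4.26-fold the mean of control libraries 1 and 3 (log2 fold change 2.03, SE 0.17, adjusted p = 0.0176). With 6 libraries it missed the threshold at 2.15 (SE 0.23, adjusted p = 0.0633). In alternatives chosen after seeing the data, apart from the replicate block, it passed with 6 libraries in 0 of 7 and without control library 2 in 7 of 7. With 1 more library left out its adjusted p ran from 0.000112 to 0.304, and it passed only without PM2.5 library 3, where 48.1% of all genes did, while the other 4 fits called 0 genes in all. Slc48a1, a heme transporter, was at 29.0, 35.4 and 27.9 FPKM and at 83.4, 79.3 and 47.3 FPKM (1.13, SE 0.28, adjusted p = 0.688 with 6 libraries, and 1.23, SE 0.27, adjusted p = 0.133 without control library 2). Cbr3, a carbonyl reductase, was at 16.7, 6.39 and 20.3 FPKM and at 36.9, 38.4 and 29.0 FPKM (1.34, SE 0.43, adjusted p = 0.875 with 6 libraries, and 0.87, SE 0.16, adjusted p = 0.107 without control library 2). For these 3 genes the groups did not overlap, and PM2.5 library 3 was the lowest of its group, whereas for Nqo1, Gclc and Gclm it was the highest. The median log2 fold change of the 19 genes was 0.45 with 6 libraries and 0.50 without control library 2, the highest of the 6 lists. For the further genes of the others it was 0.23 and 0.077 (regulators), -0.10 and 0.22 (glutathione synthesis and cystine supply), 0.22 and -0.034 (glutathione reduction), 0.15 and -0.078 (thioredoxin system) and 0.11 and 0.28 (NADPH supply). All PM2.5 libraries lay above all control libraries for 9 of the 19 genes and below them for 0, against 8.35% and 6.85% of all genes. Without control library 2 these were 15 and 0, against 17.8% and 19.8%. In the same order these counts were 0, 0, 1 and 2 for regulators and 1, 2, 5 and 2 for glutathione synthesis and cystine supply. They were 2, 0, 2 and 0 for glutathione reduction and 1, 0, 5 and 1 for NADPH supply.

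**Figure D4:**
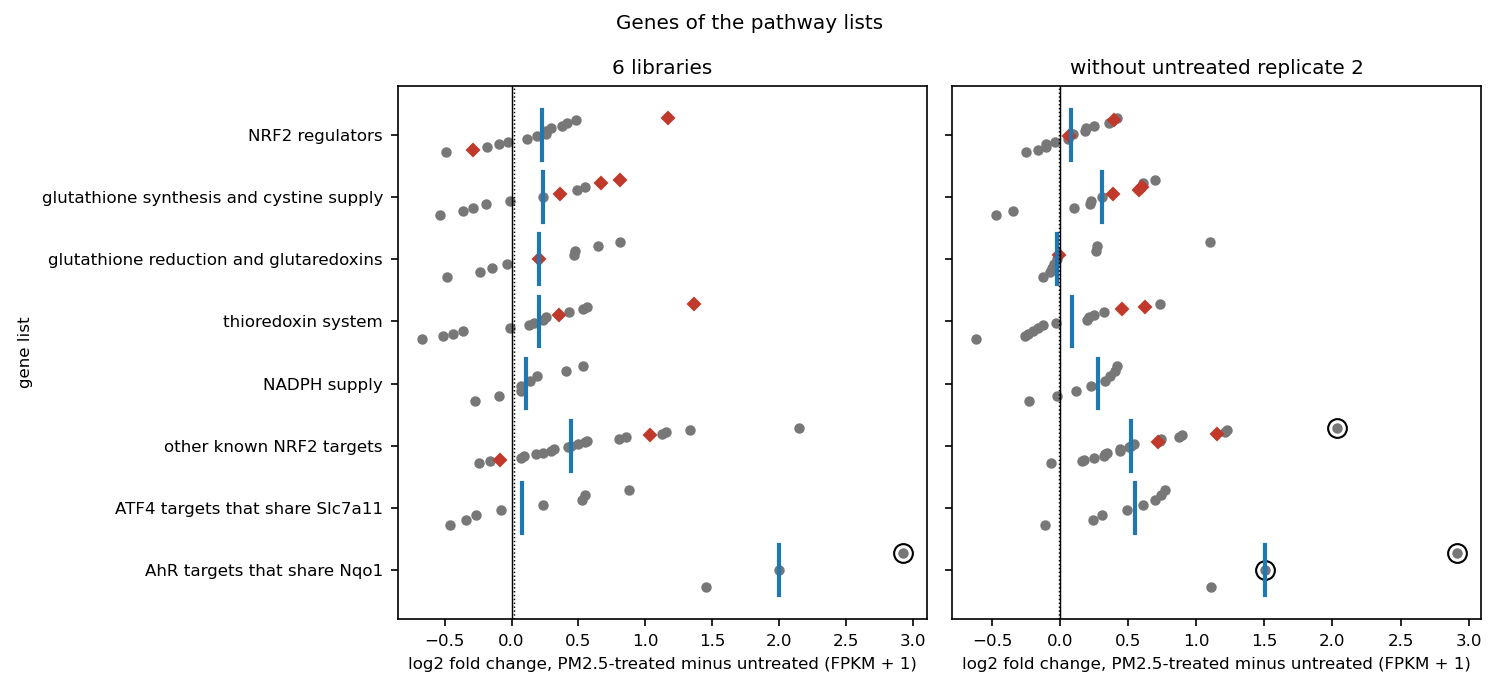
Log2 fold change (PM2.5 minus control, of FPKM + 1) of each tested gene of the pathway lists, in the limma fit of 6 libraries (left) and without control library 2 (right). Diamonds are the 10 genes described above, rings mark genes at an adjusted p under 0.05, bars are list medians, the solid line is 0 and the dotted line the median of all genes. Hmox1 is the ringed gene at 2.03 among known NRF2 targets on the right.

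Some of the 10 genes are also known targets of other factors, which were described by 2 further lists. The first held Atf4 and 7 genes that ATF4 is known to control, as it does Slc7a11. Of the 7, 0 passed in either limma fit, and 0 and 4 were higher at an unadjusted p under 0.05, against 1.92% and 8.32% of all genes. All PM2.5 libraries lay above all control libraries for 1 of the 7, against 8.35% of all genes. Without control library 2 this held for 6 of the 7, against 17.8%, and 0 lay below in either case, against 6.85% and 19.8%. Slc3a2 and Chac1 are among the 7 and were also counted above under glutathione synthesis and cystine supply. Their median log2 fold change was 0.24 with 6 libraries and 0.49 without control library 2, and with Atf4 counted in it was 0.08 and 0.55. Atf4 itself was at 64.9, 630.2 and 67.0 FPKM in the control libraries and at 139.6, 135.6 and 71.5 FPKM in the PM2.5 libraries, so that its direction turned on control library 2 (-0.34, SE 0.93, adjusted p = 0.917 with it, and 0.74, SE 0.32, adjusted p = 0.354 without it). Asns had 31.9, 14.2 and 34.1 FPKM and 42.3, 40.9 and 58.8 FPKM (0.88, SE 0.38, adjusted p = 0.875 with 6 libraries, and 0.49, SE 0.18, also not passing, without control library 2). Trib3 had 5.17, 8.63 and 4.44 FPKM and 10.2, 9.26 and 7.42 FPKM (0.53, SE 0.27, adjusted p = 0.875, and 0.77, SE 0.15, adjusted p = 0.117, in the same order).

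Of 4 targets of the aryl hydrocarbon receptor, which also acts on Nqo1, 3 were tested and all 3 were higher at an unadjusted p under 0.05 in both limma fits, against 1.92% and 8.32% of all genes. With 6 libraries 1 passed, and without control library 2 there were 2. Cyp1a1 was at 0.0387, 0 and 0 FPKM in the control libraries and at 6.15, 6.11 and 7.94 FPKM in the PM2.5 libraries (log2 fold change 2.92, SE 0.18, adjusted p = 0.0301 with 6 libraries, and 2.91, SE 0.14, adjusted p = 0.00661 without control library 2). With 2, 0 and 0 reads among the controls, its log2 fold change depends on the pseudocount (5.93 and 5.85 with 0.1, and 8.46 and 8.25 with voom), and it passed the filter on low values only through the PM2.5 group and dropped out where 10 reads in every library were asked for. With 6 libraries it passed in 4 of 6 other alternatives that kept the libraries. It did not pass with no filter, with voom or with the replicate block, nor where a library other than control library 2 was left out, but all these fits called 0 genes in all. Without control library 2 it passed in 6 of 6, and with 1 more library left out only without PM2.5 library 3, where 48.1% of all genes did, while the other 4 fits again called 0 genes. These alternatives were chosen after seeing the data. Cyp1b1 was at 29.0, 9.41 and 27.5 FPKM and at 78.8, 78.5 and 88.8 FPKM, and passed without control library 2, at 2.90-fold the mean of control libraries 1 and 3 (adjusted p = 0.0097) and in 7 of 7 alternatives that kept the libraries. With 1 more library left out it too passed only without PM2.5 library 3. With 6 libraries it did not pass (adjusted p = 0.538, SE of the log2 fold change 0.44). Neither overlapped between the groups. The part of either factor in the values of Slc7a11 and Nqo1 was not tested.

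The 5 genes with the profile nearest to that of Nqo1 were found among 7806 genes with a mean of at least 5 FPKM, by the root mean square difference of log2(FPKM + 1), centred per gene, over the 6 libraries. They were Ptgs2 (0.0717), Gsta4 (0.151), Esd (0.205), Insl6 (0.243) and Ccl2 (0.244), against a median of 0.668 over all these genes. Ptgs2, cyclooxygenase 2, was at 3.22, 3.80 and 2.85 FPKM in the control libraries and at 7.27, 7.61 and 10.5 FPKM in the PM2.5 libraries, so that it reached a mean of 5 FPKM only through the PM2.5 group. Gsta4, a glutathione S-transferase of the list of known NRF2 targets, was at 6.55, 7.86 and 7.45 FPKM and at 14.3, 15.0 and 24.7 FPKM. In both, as in Nqo1, control library 2 was close to the other controls and PM2.5 library 3 was the highest, which follows from how they were chosen. The other 9 of the 10 genes were not among these 5, and Slc7a11, below 5 FPKM in every library, was not a candidate.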

How the data were processed

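The authors mapped paired-end reads with HISAT2 (2.0.5), counted them with featureCounts (1.5.0-p3) and deposited FPKM per gene. The submitters' notes name the build mm9. With GENCODE M21 (GRCm38) exon lengths, however, 98.3% to 98.7% of the values above 0 and under 50 reads gave whole read numbers (tolerance 0.1 reads) in each library. Gene names, lengths and positions are therefore those of GENCODE M21. The deposited FPKM were already scaled between libraries by a median of ratios. Groups were compared with limma (3.58.1, R 4.3.3, trend and robust options) on log2(FPKM + 1). Genes needed a mean of at least 1 FPKM over the libraries in the fit, and Benjamini-Hochberg adjustment was over all genes. The fit was also run on simulated reads with known changes. These were drawn with no library standing apart as control library 2 and PM2.5 library 3 did, so that they do not cover that case. Limma was chosen since the deposited unit is FPKM, and DESeq2, which the study used, was not run. The 10 members and the gene lists were chosen with earlier results of these data known. Named were all members, every list gene that passed, the 2 with the largest absolute log2 fold change per list and fit, and the 5 profiles nearest to Nqo1. Alternatives changed the pseudocount (0.1), filter, scaling, model, replicate block, threshold and libraries. Figures were drawn with matplotlib (3.10.9).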

Additional observations from a re-analysis of the deposited data

How the results depend on the processing

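With 6 libraries, 0 of the 10 genes passed in limma under every alternative run, and 3 were higher at an unadjusted p under 0.05. With no filter, voom, the replicate block or any library but control library 2 left out, 0 genes in all passed, so that the 0 of 10 there says nothing of these genes. Their median log2 fold change was 0.52, and 0.64 with scaling to total reads, 0.58 with scaling to reads outside mitochondrial genes, 0.58 with quantile normalization, and 0.45 to 0.58 with 1 library left out. Scaling to total reads moved the median of all genes to 0.13, and the 10 genes stayed 0.51 above it. Without control library 2 the count of 0 became 2 with voom, and 0 to 9 with 1 more library left out, where the median went from 0.47 to 0.53 and 0 genes in all passed in 4 of 5 fits. The replicate number as a block left PM2.5 library 2 without a partner, so that its fit rests on 4 libraries. It gave 1 of 10 (Nqo1, adjusted p = 0.0347) and 135 of 11597 genes, but on the same 4 libraries without the block Nqo1 did not pass (adjusted p = 0.288), and 0 genes in all did. Over all alternatives of this fit, without control library 2, the adjusted p of Nqo1 ran from 0.000575 to 0.652. Whether the numbers pair the libraries was not shown. Same-numbered deviations from the group means had correlations of -0.28, 0.18 and 0.25 across genes, and control library 1 correlated best with PM2.5 library 3. With so few libraries these deviations depend largely on control library 2 and PM2.5 library 3, which stood apart, so that the correlations cannot decide on pairing. With 6 libraries the block left 0 of 10 and 0 genes in all. Signs changed for 3 genes. With 6 libraries Osgin1 came to 0.046 with scaling to total reads and 0.0096 with quantile normalization, and with 1 library left out Osgin1 ran from -0.49 to 0.72, Keap1 from -0.48 to 0.067 and Gsr from -0.0058 to 0.33. Without control library 2 Keap1 was -0.063 under the block and -0.084 to 0.35 with 1 more library left out, and Gsr was 0.0067 and 0.0091 under the scalings to total reads and to reads outside mitochondrial genes and -0.062 to 0.050 with 1 more library left out. The cause of these shifts was not tested beyond the libraries named. Over all genes, the alternatives that left out no further library by name called 0 to 10 genes with 6 libraries, against 11, and 54 to 156 without control library 2, against 119. Alternatives for Cyp1a1, Cyp1b1 and Hmox1 were chosen after seeing the data, and Cyp1a1 has no value with at least 10 reads in every library. Values of Slc7a11 in control library 2 rest on 26 reads. Groups of 3 were not tested for single outlying libraries.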
